A study of Mus musculus with 3 samples.

Results

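The 3 Runx genes, their partner Cbfb and 6 further transcription factor genes of the blood lineages (Gata1, Gata2, Tal1, Lmo2, Gfi1 and Spi1) were examined in cells from around the embryonic dorsal aorta. They were chosen by symbol, and these 10 genes are 10 of the 47069 rows of the expression table. The question was whether Runx1 transcripts were present in perivascular cells, and which transcripts of the blood program were found beside them. Bulk RNA-seq was made from the aorta-gonad-mesonephros region (AGM) of wild-type C57BL/6J mouse embryos at embryonic day 11, with the embryos of 1 litter pooled. Cells with CD31, CD45 or cKit on their surface were gated out, and 3 populations were sorted by the proteoglycan NG2 and the receptor PDGFRβ. Double-positive (DP) cells carried both and are labelled vSMCs, vascular smooth muscle cells, by the submitters. Cells called PDGFRβ-single (PDGFRβ-S) had PDGFRβ but no NG2 and are labelled sub-vSMCs. Double-negative (DN) cells are labelled stroma with neither marker, although the study describes their PDGFRβ as low or negative. Each population gave 1 library, so there is no spread between replicates and no test, and the 3 comparisons share their libraries.

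RUNX proteins bind DNA through their Runt domain, and CBFβ, which does not bind DNA itself, strengthens that binding. In the AGM, RUNX1 is required for blood cells to emerge from hemogenic endothelium, and it has also been described in the mesenchyme beneath the aorta. GATA1, GATA2, TAL1 and LMO2 act together in complexes in blood progenitors and erythroid cells, while GFI1 and PU.1, the product of Spi1, act in hematopoietic and myeloid cells.

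Values are TPM, the share of reads per unit of gene length, scaled to the same total in each library. Where 3 values follow each other without names, their order is DP, PDGFRβ-S, DN. Reads per gene were recovered from them, and 95% intervals are exact intervals of these reads. These intervals hold no more than counting error, as PCR duplicates were not removed by molecular identifiers, and they say nothing of other litters or sorts. DP held about 12120000 reads, PDGFRβ-S about 10753000 and DN about 13031000. The sort genes were highest in DP, with 35.1, 14.3 and 7.32 TPM of Pdgfrb and 10.5, 0.485 and 1.31 TPM of Cspg4, the gene of NG2. Of all rows, 30.8%, 31.9% and 35.0% reached 1 TPM, and of nuclear protein-coding genes 53.5%, 51.9% and 56.3%. These shares stand beside each list count at 1 TPM below. Of 10 smooth muscle genes, 10, 7 and 6 reached 1 TPM, and Acta2 stood at 6256, 148 and 84.1 TPM. Mitochondrial genes took 10.5%, 25.5% and 24.4% of TPM, which left 56.5%, 43.4% and 46.3% for nuclear protein-coding genes, so TPM ratios with DP also carry this difference in composition.

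Runx1, Runx2 and Runx3 share a stretch of sequence near their first start sites, which is shown here because the 3 genes are compared throughout. Mammalian Runx genes are transcribed from a distal and a proximal promoter. RefSeq windows from 250 bases before to 50 bases after a start (GRCm38.p6) were searched on both strands for the RUNX motif letters TGTGGT and TGCGGT, which read ACCACA and ACCGCA on the other strand. Capitals mark these matches in the 30 bases around them.
Runx1: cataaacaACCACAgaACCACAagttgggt
Runx2: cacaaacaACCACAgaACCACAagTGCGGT
Runx3: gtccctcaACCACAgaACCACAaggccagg
They lie at chr16:92826025-92826054 on the minus strand, chr17:44814583-44814612 on the minus strand and chr4:135120503-135120532 on the plus strand. All 3 hold the 18 bases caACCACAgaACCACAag, in which the motif stands on 1 strand in 2 copies 8 bases apart. In Runx1 and Runx2 the printed bases follow the start, from 20 and 15 bases after it, and in Runx3 they precede the start, from position -142 to -113. A match of either motif was found in 22.4% of 32851 such windows and a pair with this spacing in 9 windows (0.0274%). These include the windows of the 3 Runx genes and a window of Gm16225 that overlaps that of Runx3. The spacing counted is that of the 18 shared bases, so the 3 Runx windows are among the 9 by definition. The second windows of Runx1 and Runx3 held no match. Because the table has 1 row per gene, the values below do not show which promoter was used.

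Runx1 transcripts were present in all 3 libraries at low level. Runx1 (ENSMUSG00000022952, chr16:92601466-92826149 on mm10) had 0.525 TPM in DP from 37 reads, 1.05 TPM in PDGFRβ-S from 88 reads and 1.17 TPM in DN from 105 reads. The 95% intervals were 0.369 to 0.723, 0.840 to 1.29 and 0.957 to 1.42 TPM, so DP was lowest and did not overlap the others, while PDGFRβ-S and DN overlapped. Among nuclear protein-coding genes Runx1 lay at the 42.5, 48.5 and 45.1 percentile, below the middle of each library. The level was 2.23-fold lower in DP than in DN (1.52 to 3.34) and 2.00-fold lower in DP than in PDGFRβ-S (1.34 to 3.01). Relative to nuclear protein-coding genes alone these ratios were 2.72-fold and 2.60-fold. In bulk libraries, fewer cells with a transcript and less of it per cell cannot be told apart. The ratio of PDGFRβ-S to DN was 0.895 with an interval of 0.667 to 1.20, a difference not detectable at this depth, and its log2 sign turned from -0.08 to 0.25 under quantile normalization. Gm26626, annotated on the opposite strand within Runx1, had 0, 2 and 2 reads. The libraries carry no strand information, so the reads of such antisense partners cannot be separated from those of the gene.

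Runx2, the regulator of bone cell formation, was highest in PDGFRβ-S. Runx2 (ENSMUSG00000039153, chr17:44495987-44814797) had 1.14, 2.74 and 1.23 TPM from 75, 215 and 103 reads. DP (0.897 to 1.43 TPM) and DN (1.00 to 1.49 TPM) overlapped, and PDGFRβ-S (2.39 to 3.14 TPM) lay above both. It was 2.23-fold higher in PDGFRβ-S than in DN (1.76 to 2.85) and 2.41-fold lower in DP than in PDGFRβ-S (1.84 to 3.17). The ratio of DP to DN was 0.927 (0.679 to 1.26), and its log2 value of -0.06 became 0.38 under quantile normalization. Supt3 lies across Runx2 on the opposite strand and went the other way, with 10.2, 4.52 and 5.25 TPM, while the antisense genes Runx2os1 and Runx2os2 had 1, 5 and 1 and 0, 2 and 0 reads.

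Runx3, which acts in T cells and sensory neurons, was lowest in DP and highest in DN. By deposited TPM it was the most abundant Runx gene in every library, and with merged exon lengths it was second to Runx2 in PDGFRβ-S. Runx3 (ENSMUSG00000070691, chr4:135120652-135177990) had 1.69, 3.22 and 4.98 TPM from 44, 100 and 165 reads, with intervals of 1.23 to 2.27, 2.62 to 3.92 and 4.25 to 5.80 TPM that did not overlap. The DP level was 0.339 of that in DN (0.238 to 0.476), a 2.95-fold difference, and Runx3 was 1.91-fold lower in DP than in PDGFRβ-S (1.33 to 2.78) and 1.54-fold lower in PDGFRβ-S than in DN (1.20 to 2.00). DN also held the most sympathetic and neural crest transcripts: all 20 genes of that list reached 1 TPM in DN against 7 in DP and 7 in PDGFRβ-S, with summed levels of 452.5, 61.4 and 47.4 TPM in DN, DP and PDGFRβ-S, and Dbh and Stmn3 were at 0 in both PDGFRβ-positive libraries. The part of such cells in the Runx3 level was not tested.

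**Figure D1:**
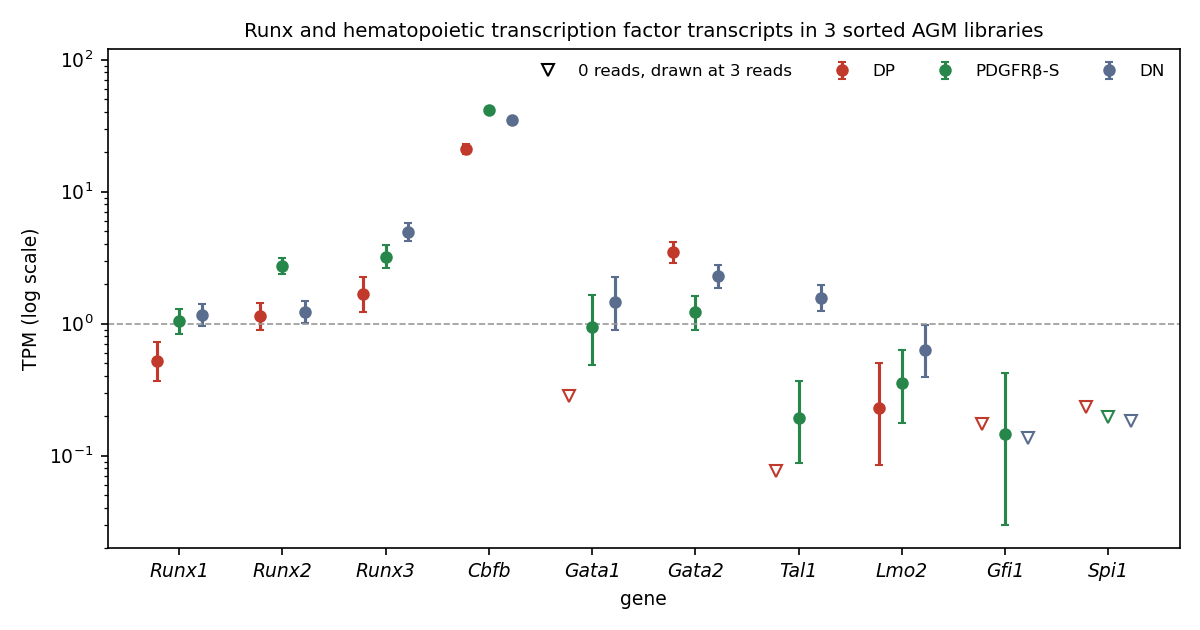
Levels of the 10 genes in DP, PDGFRβ-S and DN on a log scale of TPM, 1 library per population, with bars for the 95% counting interval and a dashed line at 1 TPM. Open triangles mark genes with 0 reads, drawn at the level of 3 reads; Cbfb is the highest gene in each library, and Spi1 has 0 reads in all 3.

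The summed Runx level was 3.36 TPM in DP, 7.02 TPM in PDGFRβ-S and 7.38 TPM in DN, and its make-up differed between the libraries. Runx1 had a similar share of it in each, with 15.6%, 14.9% and 15.8%. Runx2 made up 34.0% and 39.1% in DP and PDGFRβ-S but 16.7% in DN, and Runx3 made up 50.4%, 46.0% and 67.5%. The deposited values divide reads by a gene length that counts overlapping exons more than once, which lowers genes with many annotated transcripts. With exons merged, Runx2 instead of Runx3 was the largest share in PDGFRβ-S (47.1% against 38.7%), and Runx2 and Runx3 were near each other in DP (41.7% and 43.2%). Runx3 stayed the largest share in DN, at 61.8%, and Runx1 had 15.1%, 14.2% and 16.4%. Ratios of 1 gene between libraries do not depend on the length of that gene.

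**Figure D2:**
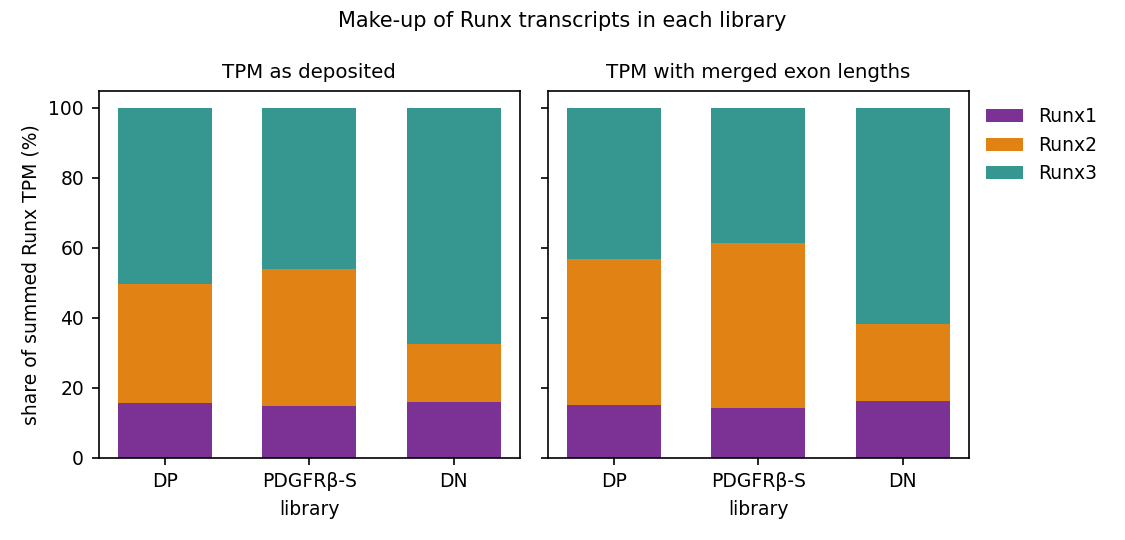
Shares of Runx1, Runx2 and Runx3 in their summed TPM in each library, in percent, for the deposited TPM (left) and for TPM computed with merged exon lengths (right). Runx1 takes between 14.2% and 16.4% in every bar, while the share of Runx2 is smallest and that of Runx3 largest in DN.

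Cbfb, the common partner of the 3 Runx proteins, was far more abundant than all of them together. Cbfb (ENSMUSG00000031885, chr8:105170674-105217989) had 21.1, 41.5 and 34.7 TPM from 531, 1246 and 1112 reads, which placed it at the 81.5, 92.1 and 89.0 percentile of nuclear protein-coding genes. The 3 intervals, 19.3 to 22.9, 39.2 to 43.9 and 32.7 to 36.8 TPM, did not overlap, and DP was lowest. It was 1.64-fold lower in DP than in DN (1.48 to 1.83) and 1.97-fold lower in DP than in PDGFRβ-S (1.78 to 2.18). Cbfb exceeded the summed Runx TPM 6.28-fold in DP, 5.91-fold in PDGFRβ-S and 4.70-fold in DN. Together with Runx1, Runx2 and Runx3 it was lower in DP than in PDGFRβ-S, by 1.91-fold to 2.41-fold in TPM, and all 4 genes kept this direction under the rescaling, gene removal and quantile alternatives.

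Other cofactors of RUNX proteins were measured almost throughout. Of 17 such genes, Cbfb among them, 16, 15 and 17 reached 1 TPM. The Groucho-type corepressors differed among themselves. Tle4 had 3.94, 9.21 and 18.9 TPM and Tle1 3.39, 7.05 and 10.7 TPM, both lowest in DP, while Aes, a short relative of the TLE proteins, had 93.4, 18.4 and 28.2 TPM and was 3.31-fold higher in DP than in DN (3.10 to 3.55). The histone deacetylase gene Hdac1 had 126, 30.9 and 36.3 TPM and Hdac3 69.5, 26.4 and 39.2 TPM, again highest in DP. At a limit of 2-fold on the log2(TPM + 1) scale with 1 TPM in the higher library, 2 of 17 cofactor genes were higher and 2 lower in DP than in DN, beside 14.8% and 24.7% of all rows. In PDGFRβ-S against DN 0 and 1 of 17 were, beside 4.97% and 15.5%, and in DP against PDGFRβ-S 4 and 1 of 16, beside 24.1% and 16.7%.

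Genes of the bone program that RUNX2 controls were not highest as a group in PDGFRβ-S, the library with the most Runx2. Of 16 genes of that list, 8, 6 and 8 reached 1 TPM, beside 30.8%, 31.9% and 35.0% of all rows. The collagen genes Col1a1 (246, 20.7 and 12.3 TPM) and Col1a2 (87.2, 38.5 and 25.4 TPM), which many mesenchymal cells express, were highest in DP. Phex, an endopeptidase gene of bone cells, had 1.53, 5.50 and 5.38 TPM, and Dmp1 and Mmp13 had 0 reads in each library. Sp7, which acts downstream of RUNX2 in osteoblasts and is named here after its values were seen, had 1.33, 0.149 and 0.908 TPM. Dlx5, a homeobox gene of bone formation named likewise, had 1.20, 1.57 and 0.118 TPM from 16, 25 and 2 reads. It was the 1 gene of the 9 tested that was 2-fold higher in PDGFRβ-S than in DN, beside 4.97% of all rows. Of these 9, 2 were lower, beside 15.5%.

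Gata2, which acts in hematopoietic progenitors and endothelium, was the one gene of the 10 that was highest in DP. Gata2 (ENSMUSG00000015053, chr6:88193891-88207032) had 3.46 TPM in DP from 114 reads, 1.22 TPM in PDGFRβ-S from 48 reads and 2.29 TPM in DN from 96 reads. DP (2.86 to 4.16 TPM) and PDGFRβ-S (0.902 to 1.62 TPM) lay furthest apart, with DN (1.86 to 2.80 TPM) between them and overlapping neither. The level was 2.83-fold higher in DP than in PDGFRβ-S (2.00 to 4.05), or 2.17-fold relative to nuclear protein-coding genes. Against DN it was 1.51-fold higher in DP (1.14 to 2.00), or 1.24-fold on that scale, for which no interval was computed. PDGFRβ-S was 1.87-fold below DN (1.31 to 2.71). Endothelial transcripts as a sum were highest in DP, and their sums in PDGFRβ-S and DN were near each other. Of 16 endothelial genes 8, 4 and 3 reached 1 TPM, beside 30.8%, 31.9% and 35.0% of all rows. Their summed level was 45.7, 9.75 and 9.16 TPM, led by Ecscr (18.9, 3.47 and 0.0902 TPM) and Flt1 (10.4, 0.151 and 0.0705 TPM). Cdh5, Tie1 and Sox17 had 0 reads in every library, and Pecam1, the gene of CD31, had 3, 1 and 0 reads. Other endothelial genes were present: Esam had 6.60, 0.130 and 0.976 TPM, and, named after their values were seen, the receptor genes Tek and Kdr had 2.36, 0.631 and 0.269 TPM and 1.58, 1.53 and 1.16 TPM, and Emcn had 1.74, 2.09 and 0.715 TPM. Cldn5, a tight junction gene named likewise, had reads in DN alone, with 0, 0 and 4.45 TPM. The part of endothelial cells in the Gata2 level was not tested.

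Gata1, a regulator of erythroid and megakaryocytic genes, was listed at 0 in DP. Gata1 (ENSMUSG00000031162, chrX:7959260-7978071) had 0.943 TPM in PDGFRβ-S from 12 reads (0.487 to 1.65) and 1.47 TPM in DN from 20 reads (0.899 to 2.27), and these overlapped. DP had 0 reads, and 3 reads would have been 0.281 TPM there. With DP set at 3 reads, DP lay 5.24-fold below DN and 3.36-fold below PDGFRβ-S, folds that carry no interval. The ratio of DN to PDGFRβ-S, 1.56-fold with an interval of 0.726 to 3.50, was not detectable at this depth. The 7 globin genes were likewise lowest in DP, with sums of 1721, 19403 and 19613 TPM.

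The other GATA genes, which pattern mesoderm, endoderm and neurons, were present as well. Gata6 had 15.5, 10.7 and 11.8 TPM and was the highest of the 6. Gata3, which acts in the sympathetic lineage and in T cells, had 4.45, 0.244 and 6.65 TPM, so that PDGFRβ-S was 27.3-fold below DN (12.3 to 75.4) and 18.3-fold below DP (8.08 to 51.1). The FOG cofactor gene Zfpm2 had 6.60, 4.53 and 6.78 TPM, and 6, 4 and 6 of the 8 GATA and FOG genes reached 1 TPM. PDGFRβ-S was the lowest library for Gata2, Gata3, Gata6 and Zfpm2, and also for Gata4 and Zfpm1, which are named after their values were seen. Gata1 was lowest in DP, and Gata5, named likewise, was lowest in DN, with 3.31, 1.26 and 0.558 TPM. The intervals of the PDGFRβ-S to DN ratio held equal levels for Gata6 (0.796 to 1.02), Gata4 (0.407 to 1.19) and Zfpm1 (0.115 to 1.23). In this comparison the median log2 difference of nuclear protein-coding genes was -0.34.

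Tal1, which encodes a basic helix-loop-helix factor required for all blood formation, had most of its reads in DN. Tal1 (ENSMUSG00000028717, chr4:115056426-115071755) had 0 reads in DP, 9 reads or 0.193 TPM in PDGFRβ-S (0.0883 to 0.366) and 78 reads or 1.57 TPM in DN (1.24 to 1.95). It was 8.11-fold lower in PDGFRβ-S than in DN (4.06 to 18.4) and DP lay at least 20.4-fold below DN, the largest differences among the 10 genes. The first RefSeq window of Tal1 was the only window of the 13 found for 8 of the genes that held a GATA motif on either strand (AGATAA or AGATAG or TGATAA or TGATAG), which 29.8% of all windows hold. Capitals mark the match, which reads AGATAA on the other strand.
Tal1: agagtcttTTATCTttgagcaa
This stretch lies at chr4:115056213-115056234 on the plus strand of GRCm38.p6. A match is a description of the letters and no evidence that a factor binds there.

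Lmo2, whose LIM-domain protein bridges TAL1 and GATA factors, stayed below 1 TPM in all 3 libraries. Lmo2 (ENSMUSG00000032698, chr2:103957986-103981878) had 0.231, 0.355 and 0.634 TPM from 6, 11 and 21 reads. Each interval overlapped the next, and the ratio of DN to DP was 2.75-fold with an interval of 1.07 to 8.33. On quantile-normalized values the log2 ratio of DP to DN was 0.08 instead of -0.41. Of the 10 genes, overlapping exon records count most for Lmo2, and with exons merged the levels were 0.564, 0.925 and 1.63 TPM. 4931422A03Rik overlaps it on the opposite strand and had 3, 3 and 10 reads.

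Several partners of TAL1 and LMO2 were more abundant than either. Of 14 genes of the complex and its E proteins, 10, 10 and 11 reached 1 TPM. Ldb1, the adaptor that joins LMO2 complexes, had 8.29, 1.88 and 6.09 TPM and the LIM-domain gene Lmo1 had 13.5, 4.46 and 20.5 TPM, both lowest in PDGFRβ-S. The E protein genes went in opposite directions: Tcf4 had 3.17, 7.501 and 11.1 TPM and Tcf12 16.7, 27.5 and 32.3 TPM, lowest in DP, while Tcf3 had 14.3, 4.62 and 6.15 TPM, highest in DP. Ssbp2, which stabilizes LDB1 complexes, was near level, at 57.1, 65.7 and 67.9 TPM. Lyl1, the close relative of Tal1 and named here after its values were seen, had 0, 0.361 and 0 TPM.

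Gfi1 and Spi1 were not detected above a few reads. Gfi1 (ENSMUSG00000029275, chr5:107716657-107726036), a repressor that acts in emerging blood cells, had 0.145 TPM in PDGFRβ-S from about 3 reads and 0 in the other libraries, where 3 reads would have been 0.172 TPM in DP and 0.135 TPM in DN. Spi1 (ENSMUSG00000002111, chr2:91082390-91115756) had 0 reads in every library, where 3 reads would have been 0.235, 0.197 and 0.184 TPM.

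Across the 10 genes, 4 reached 1 TPM in DP (Runx2, Runx3, Cbfb and Gata2), 5 in PDGFRβ-S with Runx1 added, and 7 in DN with Runx1, Gata1 and Tal1 added. Of all rows, 30.8%, 31.9% and 35.0% reached that level, and of nuclear protein-coding genes 53.5%, 51.9% and 56.3%. In DP against DN, 3 of the 7 genes with 1 TPM in the higher library were 2-fold lower (Runx3, Gata1 and Tal1), beside 24.7% of all rows at that level (15.7% of nuclear protein-coding genes), and 0 were higher, beside 14.8% (16%). In PDGFRβ-S against DN, 1 of 7 was lower (Tal1), beside 15.5% (11.7%), and 0 were higher, beside 4.97% (1.6%). In DP against PDGFRβ-S, 1 of 5 was higher (Gata2), beside 24.1% (26.9%), and 0 were lower, beside 16.7% (7.46%). The pseudocount keeps low genes within that limit: Runx1 was 2.23-fold lower in DP than in DN by TPM, but its log2(TPM + 1) difference was -0.51. Median log2 differences of the members at that level were -0.69, -0.35 and -0.65 in these comparisons, beside -0.20, -0.32 and 0.15 for all rows and -0.02, -0.34 and 0.34 for nuclear protein-coding genes.

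**Figure D3:**
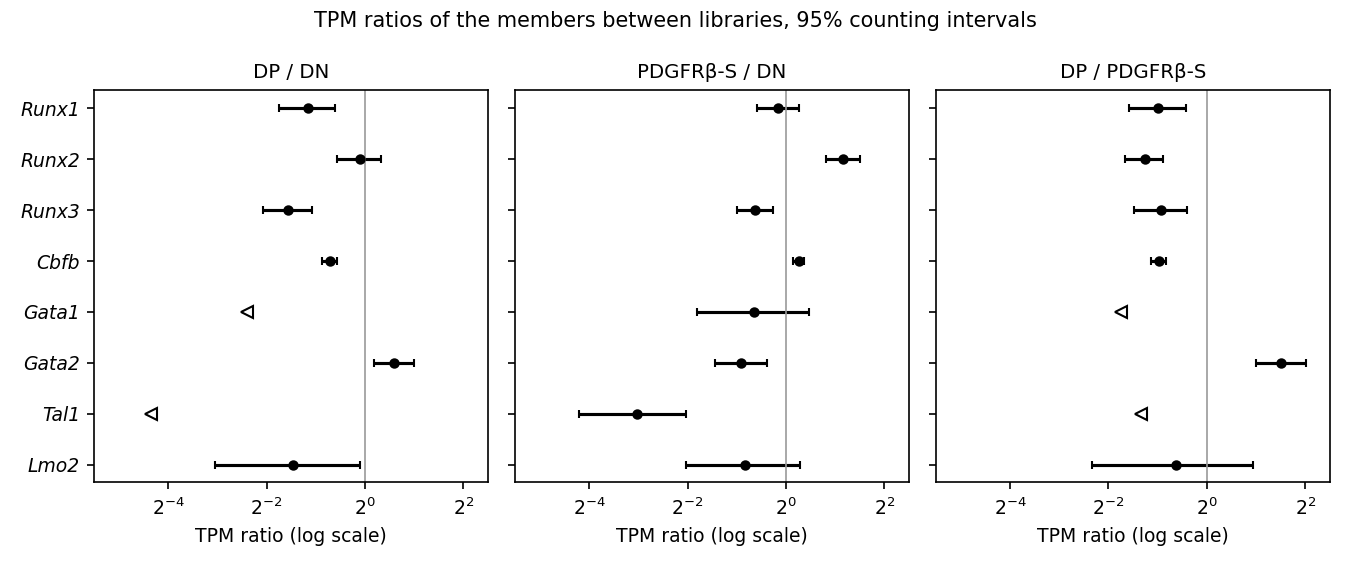
TPM ratios of 8 genes in the 3 comparisons on a log scale, with 95% counting intervals and a line at equal levels. Left-pointing triangles mark the ratios of Gata1 and Tal1, which had 0 reads in DP, with DP set at 3 reads. In DP against PDGFRβ-S, Gata2 lies to the right of the line and the 3 Runx genes and Cbfb lie to its left.

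These splits depend on the scale. When TPM were rescaled to nuclear protein-coding genes, 12.2% of rows were higher and 36.3% lower in DP than in DN, and 18.8% and 28.1% in DP against PDGFRβ-S. Under this rescaling 4 of the members, Runx2, Runx3, Cbfb and Gata1, were 2-fold lower in DP than in PDGFRβ-S and none was higher. Runx1 was lower in DP as well but stayed within the limit on the log2(TPM + 1) scale. The median of all rows moved from -0.20 to -0.54 in DP against DN and from 0.15 to -0.25 in DP against PDGFRβ-S. Removing the 20 most abundant genes moved these medians to -0.39 and -0.07, with 13.0% higher and 31.3% lower, and 20.96% and 22.6%. Quantile normalization moved them to -0.02 and -0.04, and that of PDGFRβ-S against DN from -0.32 to 0.01, with 8.68% higher and 9.24% lower there, 18.0% and 18.8% in DP against DN, and 19.6% and 19.6% in DP against PDGFRβ-S.

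Other transcription factors of the blood lineages were present in part. Of 26 such genes, 11, 14 and 12 reached 1 TPM. Those with the highest levels also act outside blood, such as the ETS factor gene Fli1 (18.5, 31.1 and 15.2 TPM), the homeobox genes Meis1 (23.3, 13.8 and 15.04 TPM) and Hoxa9 (4.52, 9.63 and 8.35 TPM), and Bcl11a (5.62, 10.96 and 11.3 TPM). Gfi1b, the close relative of Gfi1, and the lymphoid gene Ikzf3 had 0 reads in each library. Klf1, an erythroid factor gene named here after its values were seen, had 4, 24 and 0 reads, with 3.39 TPM in PDGFRβ-S, 8.55-fold the level of 3 reads in DN. It did not share the order of Gata1 and Tal1. At the 2-fold limit, 0 of 12 of these genes were higher and 1 lower in DP than in DN, beside 14.8% and 24.7% of all rows. In PDGFRβ-S against DN 1 and 1 of 15 were, beside 4.97% and 15.5%, and in DP against PDGFRβ-S 2 and 3 of 15, beside 24.1% and 16.7%.

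Several defining genes of white blood cells were not detected at this depth, while other leukocyte and myeloid genes were found, at up to 41.1 TPM for Arhgdib in DP. Ptprc, the gene of CD45, had 0 reads in each library, and 3 reads would have been 0.0288, 0.0241 and 0.0226 TPM, well below Runx1. Vav1 and Cd52 also had 0 reads, and so did the macrophage genes Adgre1, C1qa and C1qc. Of 15 leukocyte genes 4, 4 and 5 reached 1 TPM, and of 15 macrophage and myeloid genes 4, 4 and 4. These counts stand beside 30.8%, 31.9% and 35.0% of all rows. The leukocyte genes summed to 53.8, 50.2 and 46.1 TPM, most of it from Arhgdib (41.1, 26.5 and 18.9 TPM), Was (6.35, 11.6 and 10.2 TPM) and Rac2 (2.89, 9.86 and 9.09 TPM). The macrophage and myeloid genes summed to 10.8, 15.03 and 17.9 TPM, with Csf3r highest, at 3.56, 7.35 and 7.32 TPM. Csf1r, the receptor gene that macrophages depend on, had 1.81, 2.44 and 2.74 TPM from 41, 66 and 79 reads, above Runx1 in every library. Of genes named here after their values were seen, Tyrobp, an adaptor gene of myeloid cells, had 26 reads in DN and 0 in the other libraries, the lysozyme gene Lyz2 had 1, 0 and 15 reads, and the macrophage receptor genes Mrc1 and Cx3cr1 had 29, 4 and 1 and 26, 8 and 12 reads. The part of such cells in the Runx1 level was not tested.

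Of 16 hematopoietic stem and progenitor genes, 6 reached 1 TPM in each library, beside 30.8%, 31.9% and 35.0% of all rows, and Ptprc and Spn had 0 reads. The highest were Meis1, Angpt1 (10.7, 22.1 and 18.99 TPM) and Mecom (2.81, 6.01 and 5.11 TPM), and Cd34 had 4.02, 1.04 and 5.18 TPM. Kit, although cKit was used to gate cells out, had 1.20, 0.988 and 1.71 TPM from 60, 59 and 109 reads. Of 10 megakaryocyte and mast cell genes 2, 1 and 1 reached 1 TPM, and Gp9, Cpa3, Fcer1a and Mcpt4 had 0 reads.

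Erythroid transcripts, in contrast, were abundant in PDGFRβ-S and DN, the libraries in which Gata1 and Tal1 had reads. Of 19 erythroid genes 10, 14 and 13 reached 1 TPM, beside 30.8%, 31.9% and 35.0% of all rows. At the 2-fold limit, 11 of 14 were lower in DP than in DN, beside 24.7% of all rows, and 0 higher, beside 14.8%. In DP against PDGFRβ-S, 10 of 15 were lower, beside 16.7%, and 0 higher, beside 24.1%. Hbb-y, an embryonic beta-type globin, still had 375 TPM in DP, and the 12 erythroid genes other than globins summed to 12.4, 36.7 and 54.0 TPM. Between PDGFRβ-S and DN, 1 of 14 erythroid genes was higher (Klf1), beside 4.97% of all rows. In turn 1 was lower, beside 15.5%, which was Alas2, the first enzyme of heme synthesis in red cells. Tal1 differed 8.11-fold. The part of erythroid cells in the Gata1 and Tal1 levels was not tested, and neither was that of the neural and muscle transcripts of DN, where 10 of 11 skeletal muscle genes reached 1 TPM against 5 in DP and 3 in PDGFRβ-S, and 9 of 10 sclerotome and cartilage genes against 6 and 7.

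**Figure D4:**
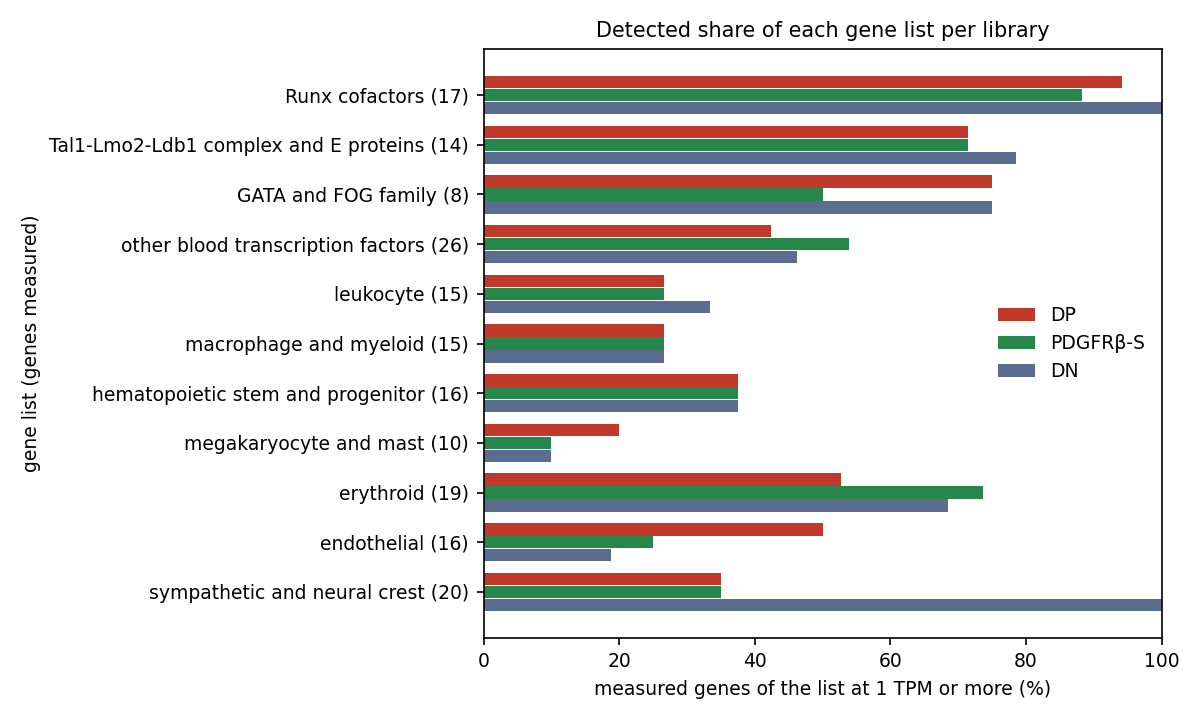
Share of the measured genes of each list that reached 1 TPM, in percent, for DP, PDGFRβ-S and DN, with the number of measured genes in parentheses. Runx cofactors reach between 15 and 17 of 17 genes in every library, leukocyte and macrophage lists between 4 and 5 of 15, and the sympathetic and neural crest list is complete only in DN.

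The 5 genes nearest to Runx1 on the log2(TPM + 1) scale are given as a description. Likeness was the distance between log2(TPM + 1) values centred on their mean over the 3 libraries, among 7129 nuclear protein-coding genes with 10 TPM or more in the highest library and a TPM above 0 in all 3. The nearest was Snrpb2, a spliceosome gene, with 74.1, 100.6 and 106.1 TPM at a distance of 0.0078, followed by B4galt1, Naa50, Pin4 and Cetn2. On this scale the pseudocount shrinks the differences of a gene near 1 TPM more than those of these more abundant genes. By TPM, Snrpb2 was 1.43-fold higher in DN than in DP and B4galt1 1.44-fold, against 2.23-fold for Runx1. Each distance rests on 3 points and carries no test.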

How the data were processed

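Cells were sorted into lysis buffer and polyadenylated RNA was turned into full-length cDNA libraries by a SMART-type protocol without molecular identifiers. The authors deposited TPM for 47069 rows in 1 column for each of 3 libraries, and TPM sum to 1e+06 in each. Per the submitters' processing notes, TopHat2 2.0.10 and mm10 were used. The methods name Cufflinks TPM of RefSeq transcripts and, separately, counts over GENCODE, and which route gave the deposited table is not stated. A second sheet of 4 columns could not be assigned to samples and was not used.

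TPM multiplied by gene length came out as whole multiples of a constant, 1 for each library, when the length was the sum of distinct exon records in GENCODE M21, in which overlapping exons count more than once. Of 7070 genes with 50 to 5000 reads and equal coordinates, 87.7% came out whole in the 3 libraries (tolerance 0.002 reads), against 10.8% with merged exons and 0% with constants shifted by 3 percent. Lengths were adjusted between 0.4 and 2.5 times the annotated one where needed, and one was found for 99.4% of expressed rows. This recovery was chosen after the data were seen, and reads served only for depth and for exact Poisson (level) and binomial (ratio) intervals at 95%.

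Differences are log2((TPM + 1)/(TPM + 1)), and folds in the text are TPM ratios. Genes were called higher or lower past 2-fold on the log2 scale where the larger value was at least 1 TPM. A gene with 0 reads was set to 3 reads for a fold, and such folds carry no interval. The members and the 16 gene lists, 220 of whose 223 genes were measured, were chosen with earlier results of these data known. The symbols Tle5, Ahsp and Mymk were not matched, and of Itgam, on 2 rows, the higher was kept. Named from each list are the 3 highest genes, the 2 highest and 2 lowest ratios per comparison among genes with 5 TPM or more, and genes at 0 throughout. Promoter windows are from RefSeq; Lmo2 and Spi1 had none. The calculations, made with numpy 2.4.6, pandas 2.3.3, scipy 1.17.1 and matplotlib 3.10.9, were tested on simulated data. Alternatives were other pseudocounts, level filters and fold limits, rescaling to nuclear protein-coding genes, removal of the 20 most abundant genes, quantile normalization, read shares and, added after the data were seen, merged exon lengths.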

Additional observations from a re-analysis of the deposited data

How the results depend on the processing

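No paired analysis was possible because each population had 1 library, and for the same reason no library could be left out of a group. No called gene of the 10 changed direction under any alternative run. Among genes not called, quantile normalization also turned the sign of Lmo2 in PDGFRβ-S against DN (0.0031) and in DP against PDGFRβ-S (0.08). The 3 members lower in DP than in DN became 0 with a pseudocount of 5 TPM, a filter of 10 TPM or a limit of 4-fold. The 1 lower in PDGFRβ-S than in DN became 0 under the same 3 settings and under quantile normalization. For members higher in PDGFRβ-S than in DN, 0 became 1 with a pseudocount of 0.1 TPM, with rescaling to nuclear protein-coding genes and with quantile normalization. For members higher in DP than in PDGFRβ-S, 1 became 0 with a pseudocount of 5 TPM, 10 TPM, 4-fold, the rescaling, removal of the 20 most abundant genes and quantile normalization. For members lower in DP than in PDGFRβ-S, 0 became 1 with a pseudocount of 0.1 TPM, 4 with the rescaling, 3 with the removal, 2 with quantile normalization and 1 with merged exon lengths. At 5 TPM or more, 1, 1 and 1 members were detected. Low levels make the calls depend on the pseudocount and the filter by construction, and for the scaling settings the cause was not tested.

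Counted as reads, without length, Runx1, Runx2 and Runx3 made up 23.7%, 48.1% and 28.2% of Runx reads in DP, 21.8%, 53.3% and 24.8% in PDGFRβ-S and 28.2%, 27.6% and 44.2% in DN. With merged exon lengths, chosen after seeing the data, Runx2 and Runx3 stood at 47.1% and 38.7% in PDGFRβ-S and at 21.8% and 61.8% in DN. Across all alternatives, 115 of 180 log2 ratios stayed within their counting error, and 675 of 960 list counts stayed near the count reported. Depth limits Gfi1 and Spi1, with at most about 3 reads in a library, and Lmo2, with at most 21.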
